A study of Homo sapiens with 22 samples.

Results

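The 6 genes described here were ZBTB17, which encodes the transcription factor MIZ1, and 5 genes of autophagy and vesicle transport that are taken as direct targets of MIZ1, namely VAMP4, AMBRA1, UVRAG, EXOC2 and VPS28. They were chosen by name, with earlier results of these data known. All 6 members were found once in each of the RNA sequencing tables, among 25244 genes in the HUWE1 experiment and 25791 genes in the MIZ1 experiment.

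MIZ1 is a zinc finger protein with a POZ domain that binds core promoters. Alone it activates transcription, and in a complex with MYC it represses, as at the cell cycle inhibitor genes CDKN1A and CDKN2B. HUWE1 is a HECT-domain ubiquitin ligase with MIZ1 among its substrates, and BI8622 is a small molecule inhibitor of HUWE1. Autophagy encloses cytoplasm in a membrane that is later fused with lysosomes. AMBRA1 and UVRAG bind Beclin 1 (BECN1) and regulate the lipid kinase PIK3C3 that starts and matures these membranes. VAMP4 is a SNARE protein of the trans-Golgi network and endosomes, EXOC2 is a subunit of the exocyst, which tethers secretory vesicles at the plasma membrane, and VPS28 is a subunit of ESCRT-I, which sorts ubiquitinated cargo into multivesicular endosomes.

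The cells were Ls174T, a human colon carcinoma line, and RNA was sequenced from 8 groups of 2 libraries. In the HUWE1 experiment, cells with an empty pLKO vector (control vector) or with pLKO-shHUWE1, both delivered by lentivirus and selected with puromycin, were incubated with the solvent DMSO or with 20 µM BI8622 for 16 h. In the MIZ1 experiment, all 4 groups carried pIND-shMiz1, an shRNA against MIZ1 that doxycycline switches on, and were kept without doxycycline (-Dox) or with 1 µg/ml for 4 days (+Dox), each with DMSO or 20 µM BI8622 for 16 h. No group had doxycycline without the shRNA, so doxycycline and MIZ1 depletion cannot be told apart, and making the MIZ1-depleted cells included a sorting step. The sources do not say whether the 2 libraries per group were made from different cultures.

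The values used are the authors' mean expression levels of pairs of groups, from which the level of each single group was solved, in counts scaled to library size (CPM, counts per 1000000). No values per library were used, so the spread between the 2 libraries of a group is unknown, no test was possible, and every difference below is a description of group means. The 95% intervals cover the counting of reads only and would be wider with the spread between libraries. They rest on a depth of 9590000 to 10200000 reads per library, estimated from the spacing of low values in 4 of the 9 pairs of groups. In DMSO, HUWE1 itself had 420 CPM with the control vector and 218 CPM with shHUWE1, a 1.93-fold difference, so depletion of its RNA was partial. In BI8622, HUWE1 had 460 CPM with the control vector and 176 CPM with shHUWE1. All 10 colon epithelium markers were detected, with a summed level of 1928 to 3444 CPM over the 8 groups, and the summed levels of fibroblast, leukocyte and endothelial markers stayed between 1.25 and 8.62 CPM, with only 1 or 2 genes of each of these lists present in a table.

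Since MIZ1 acts at promoters, the 250 bases before the start site are shown for the members that have an entry in the RefSeq promoter table (GRCh38.p14), which are VAMP4, AMBRA1 and EXOC2. These coordinates are of another build than the expression tables (hg19). The capitals mark the tetramers ATCG and CGAT, the outer tetramers of the palindrome ATCGAT that is known as a MIZ1 motif. Its middle tetramer, TCGA, was neither marked nor counted, and this marking was chosen after the sequences were seen.
VAMP4, chr1:171742066-171742315, minus strand: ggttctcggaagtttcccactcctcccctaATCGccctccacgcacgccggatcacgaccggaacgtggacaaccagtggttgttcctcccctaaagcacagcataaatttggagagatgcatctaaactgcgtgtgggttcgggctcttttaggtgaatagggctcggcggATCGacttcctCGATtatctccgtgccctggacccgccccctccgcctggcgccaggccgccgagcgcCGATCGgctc
AMBRA1, chr11:46594024-46594273, minus strand: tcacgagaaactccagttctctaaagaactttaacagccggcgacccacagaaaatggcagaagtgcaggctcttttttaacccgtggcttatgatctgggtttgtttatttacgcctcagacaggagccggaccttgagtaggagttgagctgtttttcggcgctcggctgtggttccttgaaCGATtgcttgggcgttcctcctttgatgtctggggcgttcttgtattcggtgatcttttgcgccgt
EXOC2, chr6:693140-693389, minus strand: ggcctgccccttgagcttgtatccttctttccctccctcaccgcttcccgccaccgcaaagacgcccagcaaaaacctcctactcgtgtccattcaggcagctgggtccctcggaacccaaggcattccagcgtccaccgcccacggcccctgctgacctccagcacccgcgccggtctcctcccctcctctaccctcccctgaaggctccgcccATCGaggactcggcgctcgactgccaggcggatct
The 6 letters ATCGAT were in none of the 3 sequences and in 0.655% of all 35116 promoter windows of this length. The E-box CACGTG, the palindrome bound by MYC with MAX, was also in none of them and in 6.34% of all windows. The VAMP4 window held 5 of the tetramers, counting the overlapping ones in CGATCG separately, and 0.0712% of all windows held at least as many. This share cannot be read as a test, because the tetramers were chosen after the VAMP4 window was seen. AMBRA1 and EXOC2 held 1 each, and 30.9% of all windows held at least 1. A second AMBRA1 entry, at chr11:46587445-46587694, held 0. GC content was 60.8% for VAMP4, 66% for EXOC2 and 50% for the AMBRA1 window shown, against a median of 58%. A match of letters, or the lack of one, is no measure of binding. No other MIZ1 motif and no bases after the start site were searched, and the ChIP sequencing of MIZ1 and MYC was not analysed here.

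ZBTB17 (ENSG00000116809, hg19 chr1:16268364-16302627, minus strand, 16 exons in its canonical transcript), the gene that the shRNA targets, was lower with doxycycline. In DMSO its level was 15.7 CPM without and 11.02 CPM with doxycycline, a 1.43-fold lower level (log2 difference -0.51, 95% counting interval -0.77 to -0.26). In BI8622 its level was 22.6 CPM without and 11.4 CPM with doxycycline, a 1.98-fold lower level (-0.99, interval -1.22 to -0.75). Of all genes tested, 2.20% were lower still in DMSO and 0.253% in BI8622. The remaining ZBTB17 RNA in doxycycline was thus 0.700 of the level without it in DMSO and 0.505 of it in BI8622.

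The response of ZBTB17 to BI8622 differed between these cells. Without doxycycline it was 1.44-fold higher in BI8622 (0.52, interval 0.31 to 0.73), which 17.7% of all genes exceeded. With doxycycline it was 1.03-fold higher (0.049, interval -0.22 to 0.32), and the difference of both responses was -0.47 (interval -0.82 to -0.13). Of all genes, 7.02% had a lower value. This is the same quantity as the gap between the doxycycline differences in BI8622 and in DMSO given above, and not a further result. In the HUWE1 experiment ZBTB17 had 17.2 CPM in control vector cells in DMSO, 19.4 CPM in BI8622, 17.4 CPM in shHUWE1 cells in DMSO and 16.9 CPM in BI8622. No neighbours in that order differed beyond counting error, and the BI8622 response of control vector cells was 0.17 (interval -0.040 to 0.39). HUWE1 depletion in DMSO went with a ZBTB17 difference of 0.021 (interval -0.20 to 0.24). The 15.7 and 22.6 CPM of ZBTB17 without doxycycline correspond to about 302 and 433 reads in 2 libraries.

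**Figure D1:**
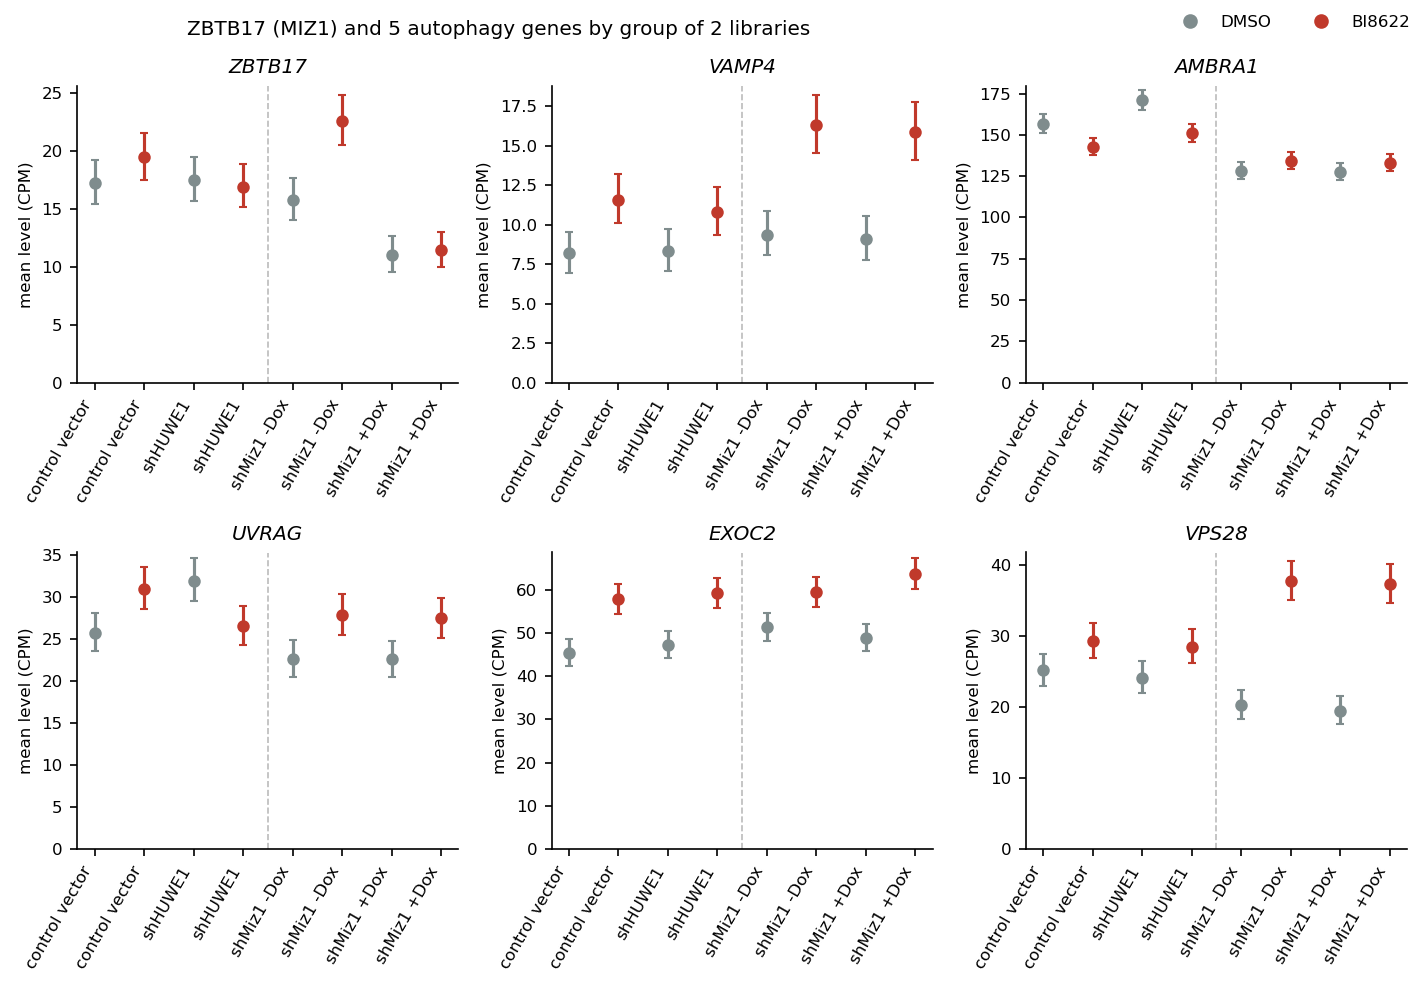
Mean level in CPM (y axis, from 0) of each member in the 8 groups of 2 libraries (x axis), with DMSO in grey and BI8622 in red; bars are 95% counting intervals and the dashed line separates the HUWE1 experiment (left) from the MIZ1 experiment (right), which were normalized separately. VAMP4, EXOC2 and VPS28 are higher in red in each pair, and ZBTB17 is lowest in the +Dox groups, at 11.02 and 11.4 CPM.

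Among the 6 members, VAMP4 and VPS28 had the largest responses to BI8622 in the MIZ1 experiment. VAMP4 (ENSG00000117533, chr1:171669300-171711214, minus strand, 8 exons) had 9.37 CPM in DMSO and 16.3 CPM in BI8622 without doxycycline, and 9.09 and 15.8 CPM with it. These were 1.74-fold higher levels in both settings (0.80, interval 0.53 to 1.06 without, and 0.80, interval 0.53 to 1.07 with doxycycline). In control vector cells VAMP4 had 8.18 CPM in DMSO and 11.5 CPM in BI8622, 1.41-fold higher (0.50, interval 0.20 to 0.79). In shHUWE1 cells it had 8.33 and 10.8 CPM, 1.29-fold higher (0.37, interval 0.075 to 0.67). The VAMP4 response was exceeded by 9.27% of all genes without and 7.26% with doxycycline. In control vector cells 13.6% of all genes exceeded it, and in shHUWE1 cells 14.4%. In both experiments the DMSO groups were the lowest and the BI8622 groups the highest, and the 2 groups of one treatment did not differ beyond counting error.

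VPS28 (ENSG00000160948, chr8:145648984-145653946, minus strand, 10 exons) had 20.4 CPM in DMSO and 37.8 CPM in BI8622 without doxycycline, 1.86-fold higher (0.89, interval 0.71 to 1.07). With doxycycline it had 19.5 and 37.4 CPM, 1.91-fold higher (0.94, interval 0.76 to 1.12). A larger positive difference was found for 4.97% of all genes with doxycycline and for 7.33% without it. The response was smaller in the HUWE1 experiment. There VPS28 had 25.2 CPM in DMSO and 29.4 CPM in BI8622 in control vector cells (0.22, interval 0.047 to 0.40), and 24.1 and 28.5 CPM in shHUWE1 cells (0.24, interval 0.062 to 0.42). Larger positive differences were found for 30.5% of all genes in control vector cells and for 22.6% in shHUWE1 cells. The response of shMiz1 cells without doxycycline exceeded that of control vector cells by 0.67 (interval 0.42 to 0.92), and whether the experiment or the cells set this gap cannot be told apart. VPS28 lies on chromosome 8, and its sequence is not shown.

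EXOC2 (ENSG00000112685, chr6:485154-693139, minus strand, 28 exons) was higher in BI8622 in all 4 settings, by less than 1.5-fold. In control vector cells its level was 45.4 CPM in DMSO and 57.7 CPM in BI8622, 1.27-fold higher (0.35, interval 0.22 to 0.47). In shHUWE1 cells it was 47.1 and 59.1 CPM, 1.25-fold higher (0.33, interval 0.20 to 0.45). Without doxycycline the levels were 51.3 and 59.3 CPM (0.21, interval 0.087 to 0.33) and with doxycycline 48.8 and 63.6 CPM (0.38, interval 0.26 to 0.50). The response was thus of the same order in both experiments, with the group means of BI8622 above those of DMSO throughout. Larger positive differences were found for 21.2% of all genes in control vector cells and for 16.9% in shHUWE1 cells. In the MIZ1 experiment these shares were 35.8% without and 21.1% with doxycycline.

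UVRAG and AMBRA1, which act with Beclin 1, differed by less than 1.5-fold in each comparison and had no common direction with BI8622. UVRAG (ENSG00000198382, chr11:75526255-75855276, plus strand, 15 exons) had 25.8 CPM in DMSO and 31.0 CPM in BI8622 in control vector cells, 1.20-fold higher (0.27, interval 0.094 to 0.44). In shHUWE1 cells the order was opposite, with 31.9 CPM in DMSO and 26.5 CPM in BI8622, 1.21-fold lower (-0.27, interval -0.44 to -0.10). UVRAG was also 1.24-fold higher in shHUWE1 than in control vector cells in DMSO (0.31, interval 0.14 to 0.48), the largest difference of a member in that comparison, and this value and both responses share groups. In the MIZ1 experiment UVRAG was higher in BI8622, with 22.6 and 27.8 CPM without doxycycline (0.30, interval 0.12 to 0.48) and 22.6 and 27.4 CPM with it (0.28, interval 0.099 to 0.47). Larger rises were found for 29.4% and 27.4% of all genes there, and for 26.9% in control vector cells. In shHUWE1 cells 24.1% of all genes had a lower value than UVRAG.

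AMBRA1 (ENSG00000110497, chr11:46417964-46615675, minus strand, 18 exons) had the highest levels of the members and the narrowest range in the MIZ1 experiment. Its level there was 128 CPM in DMSO and 134 CPM in BI8622 without doxycycline, and 128 and 133 CPM with it, and no neighbours in that order differed beyond counting error. In the HUWE1 experiment it was lower in BI8622, with 157 CPM in DMSO and 143 CPM in BI8622 in control vector cells (-0.13, interval -0.21 to -0.059), and 171 and 151 CPM in shHUWE1 cells (-0.18, interval -0.25 to -0.11). These differences exceed counting error at the about 2740 to 3277 reads per group that AMBRA1 had, and each lies between the 10th and 90th percentile of all genes. Per kilobase of merged exons, AMBRA1 was also the highest of the members, with a mean of 20.2 CPM per kb over the HUWE1 groups, against 10.5 for EXOC2, 7.11 for VPS28, 4.18 for ZBTB17, 3.92 for UVRAG and 1.95 for VAMP4. The gene models over which the authors counted reads are not given and may differ from these exons. The order between genes is thus approximate.

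**Figure D2:**
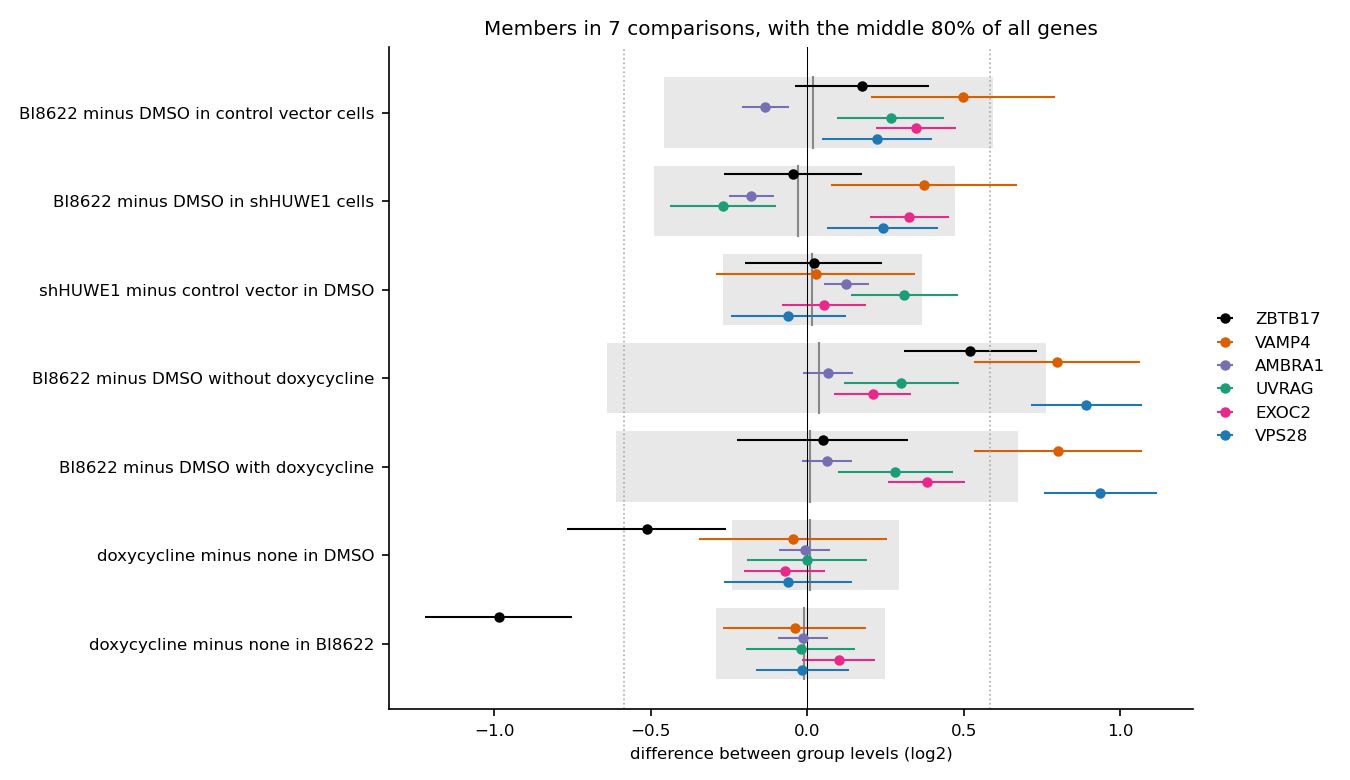
Difference between group levels on the log2 scale (x axis) for each member (coloured points with 95% counting intervals) in 7 comparisons (y axis); grey bars span the 10th to 90th percentile of all genes, the grey tick is their median, and dotted lines mark 1.5-fold. In the doxycycline comparisons ZBTB17 lies outside the grey bar, at -0.51 and -0.99, and the 5 targets lie inside it, between -0.072 and 0.10.

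Over the members as a list, BI8622 in the MIZ1 experiment gave the most differences of 1.5-fold. Without doxycycline, 2 of 6 members (VAMP4 and VPS28) were at least 1.5-fold higher, against 15.3% of the 25251 genes of at least 1 CPM, and 0 were 1.5-fold lower, against 11.6%. With doxycycline the same 2 of 6 were higher, against 12.6%, and 0 were lower, against 10.9%. The share of 2 in 6 rests on 2 genes. Shares of all genes, here and throughout, include genes under the levels of the members, where counting alone gives wider differences. No share was computed at the levels of the members. The median difference of the members was 0.41 without and 0.33 with doxycycline, and that of all genes was 0.039 and 0.0088. All 6 members had a positive difference in both comparisons, but the counting interval held 0 for AMBRA1 in both and for ZBTB17 with doxycycline. A positive difference was also common among all genes. The 0.067 of AMBRA1 without doxycycline was exceeded by 47.2% of them, and the 0.049 of ZBTB17 with doxycycline by 46.5%.

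In the HUWE1 experiment no member differed by 1.5-fold. In control vector cells 0 of 6 were higher with BI8622, against 10.4% of 24715 genes, and 0 were lower, against 5.83%. In shHUWE1 cells 0 of 6 were higher, against 6.54%, and 0 were lower, against 6.78%. The median of the members was 0.24 with the control vector and 0.098 with shHUWE1, with 0.019 and -0.030 for all genes, and 5 of 6 and 3 of 6 differences were positive. Since the medians of all genes lay near 0, a positive difference was common among all genes too. The counting interval was above 0 for 4 members and below it for 1 with the control vector, and for 3 and 2 with shHUWE1. HUWE1 depletion in DMSO gave 0 higher, against 3.99%, and 0 lower, against 1.68%, with a member median of 0.041 and a median of 0.017 over all genes. In that comparison the counting interval of UVRAG and AMBRA1 excluded 0, and that of the other 4 members held it. Of all genes, 13.0% had a larger positive difference than UVRAG and 31.3% a larger one than AMBRA1.

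For each of the 5 targets, the counting interval of the doxycycline difference held 0 in both treatments. The share of all genes whose interval held 0 was not computed. Small differences were common, since the 10th to 90th percentile of all genes ran from -0.24 to 0.29 in DMSO and from -0.29 to 0.25 in BI8622. Doxycycline in DMSO gave 0 of 6 members at least 1.5-fold lower, against 1.43% of all genes, and 0 higher, against 2.27%. The differences of the targets ranged from -0.072 (EXOC2) to -0.0019 (UVRAG), and the widest interval, that of VAMP4, ran from -0.35 to 0.26. Doxycycline in BI8622 gave 1 of 6 lower, against 2.02%, which was ZBTB17 itself, and 0 higher, against 1.66%. There the targets ranged from -0.041 (VAMP4) to 0.10 (EXOC2). The intervals of VAMP4 were the widest of the targets and those of AMBRA1 the narrowest (-0.089 to 0.072 in DMSO and -0.093 to 0.065 in BI8622), and the spread between libraries would widen each of them.

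The study inhibited HUWE1 with and without the inducible shRNA to ask whether MIZ1 is needed for MYC target genes to be repressed. It reported that MIZ1 depletion eased this repression for some of these genes, most strongly for those of ribosomal proteins. The 5 autophagy targets are another class of genes and do not address that question. ZBTB17 RNA also remained at 0.700 of its level without doxycycline in DMSO and at 0.505 in BI8622. For these 5 targets, the responses with and without doxycycline differed by at most 0.17. The response with doxycycline minus that without was 0.0042 for VAMP4 (interval -0.37 to 0.38), -0.0053 for AMBRA1 (-0.12 to 0.11), -0.019 for UVRAG (-0.28 to 0.24) and 0.045 for VPS28 (-0.21 to 0.30). For EXOC2 it was 0.17 (-0.0014 to 0.35), a larger response with doxycycline. Each of these intervals held 0, which does not show that the responses were equal. Between shHUWE1 and control vector cells, the responses differed by -0.54 for UVRAG (interval -0.78 to -0.29), and 7.60% of all genes had a lower value. For VAMP4, AMBRA1, EXOC2 and VPS28 this difference ran from -0.13 to 0.018, and each interval held 0.

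**Figure D3:**
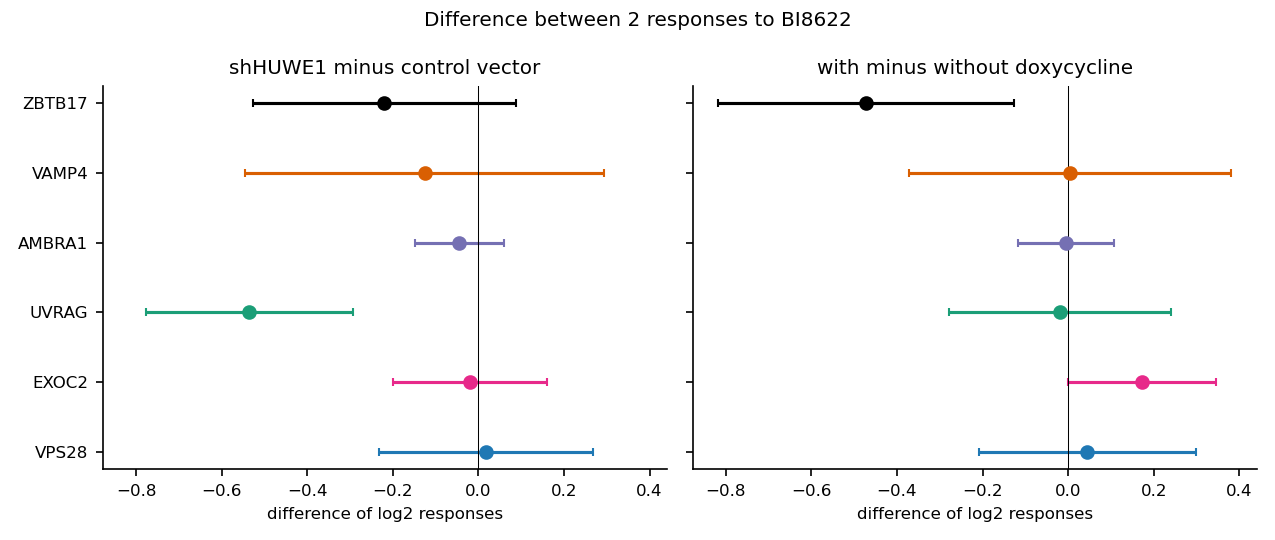
Difference between 2 log2 responses to BI8622 (x axis) for each member (y axis), as shHUWE1 minus control vector cells (left) and as +Dox minus -Dox (right); points are group means with 95% counting intervals. The interval excludes 0 for UVRAG on the left, at -0.54, and for ZBTB17 on the right, at -0.47.

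The partners of the members in their complexes were read in the same way. In the exocyst, EXOC1 and EXOC3, which encode subunits of the same complex as EXOC2, were at least 1.5-fold higher with BI8622 in all 4 settings. EXOC3 had 78.4 CPM in DMSO and 138 CPM in BI8622 in control vector cells, and 74.6 and 155 CPM in shMiz1 cells without doxycycline. EXOC1 had 37.3 and 62.9 CPM, and 43.5 and 79.7 CPM, in the same groups. Of the 9 exocyst genes, 2 were higher and 0 lower in control vector cells, in shHUWE1 cells and with doxycycline, and 3 were higher and 0 lower without doxycycline, where EXOC4 joined them (62.0 and 93.4 CPM). The shares of all genes that were higher were 10.4%, 6.54% and 12.6% in the first 3 of these settings and 15.3% without doxycycline. The shares that were lower were 5.83%, 6.78% and 10.9%, and 11.6% without doxycycline. The exocyst counts rest on 2 or 3 genes. EXOC2, at 1.16-fold to 1.30-fold, was the median gene of the list in control vector cells (0.35) and without doxycycline (0.21). EXOC5 had the lowest response without doxycycline, at -0.18.

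In ESCRT-I, VPS28 had the largest difference of the 9 genes in both settings of the MIZ1 experiment. VPS37C, another ESCRT-I subunit, went from 29.9 CPM in DMSO to 48.3 CPM in BI8622 without doxycycline (0.69) and from 29.2 to 45.2 CPM with it (0.63). TSG101, the subunit that VPS28 binds, had 68.1 and 96.3 CPM without doxycycline (0.50) and 81.6 and 101 CPM with it (0.31). The low-level VPS37D passed 1.5-fold without doxycycline, at 1.72 and 2.69 CPM, and the ESCRT-I count was then 3 of 9 higher and 0 lower. With doxycycline it was 2 of 9 higher, in control vector cells 1 of 9 (VPS37D) and in shHUWE1 cells 0 of 9, with 0 lower in each. Over all genes, 15.3% were higher without and 12.6% with doxycycline, 10.4% with the control vector and 6.54% with shHUWE1. The shares that were lower were 11.6%, 10.9%, 5.83% and 6.78% in the same order. The count of the HUWE1 experiment was thus near the background, and that of the MIZ1 experiment rests on 2 or 3 genes. The median of the list was 0.42 without and 0.31 with doxycycline, and 0.22 and -0.00034 in control vector and shHUWE1 cells.

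Among the SNAREs, the partners of VAMP4 at the trans-Golgi network had smaller responses than VAMP4. Without doxycycline, STX16 had 63.7 CPM in DMSO and 90.3 CPM in BI8622 (0.50), VTI1A had 77.3 and 92.4 CPM (0.26), and STX6 had 37.0 and 41.9 CPM (0.18). Of 16 SNARE genes, 3 were 1.5-fold higher without doxycycline (VAMP4, VAMP2 and VAMP5) and 2 with it (VAMP4 and VAMP5), and 0 were lower. Over all genes, 15.3% and 12.6% were higher, which is near the share of this list, and 11.6% and 10.9% were lower. In the HUWE1 experiment, 15 were tested, with 2 higher in control vector cells (VAMP2 and STX7), 0 in shHUWE1 cells and 0 lower in either. There 10.4% and 6.54% of all genes were higher, and 5.83% and 6.78% were lower. VAMP5 was at 0.875 CPM in DMSO without doxycycline, a level of few reads.

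In core autophagy, WIPI1, SQSTM1 and OPTN were at least 1.5-fold higher with BI8622 in all 4 settings, and neither member of this list, AMBRA1 or UVRAG, was in any. WIPI1, a phosphoinositide-binding protein of the forming autophagosome, had 9.16 CPM in DMSO and 22.9 CPM in BI8622 in control vector cells, and 10.9 and 42.8 CPM in shMiz1 cells without doxycycline. SQSTM1, the cargo receptor p62, had 201 and 303 CPM and 214 and 476 CPM in these groups. OPTN, also a cargo receptor, had 8.80 and 13.5 CPM and 9.85 and 27.4 CPM. The cargo receptors NBR1 and TAX1BP1 had smaller differences, from 0.24 to 0.34 over the 4 settings. Of 37 genes tested, 4 were higher and 0 lower in control vector cells (with ATG2B), 3 and 1 in shHUWE1 cells (ULK2 lower), 5 and 0 without doxycycline (with CALCOCO2 and MAP1LC3A) and 3 and 1 with it (PIK3R4 lower). Over all genes, the shares that were higher were 10.4%, 6.54%, 15.3% and 12.6% in this order. The higher counts of this list were thus close to or below the background, except for 3 of 37 in shHUWE1 cells, slightly above it. The shares of all genes that were lower were 5.83%, 6.78%, 11.6% and 10.9%. The lower counts, of 0 or 1 in 37, were below these shares.

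Of the direct partners of AMBRA1 and UVRAG, BECN1 had 63.1 and 63.8 CPM in DMSO and BI8622 in control vector cells, and 61.1 and 58.8 CPM without doxycycline. PIK3C3 had 28.9 and 33.5 CPM, and 30.5 and 29.0 CPM. PIK3R4, the regulatory subunit of this kinase, was lower in BI8622 in all 4 settings, by log2 differences of -0.25 with the control vector, -0.31 with shHUWE1, -0.56 in -Dox and -0.78 in +Dox cells (71.6 CPM in DMSO and 41.6 CPM in BI8622), each with a counting interval under 0. With doxycycline alone or in BI8622, 0 of the 37 core autophagy genes, 0 of 9 exocyst genes, 0 of 9 ESCRT-I genes and 0 of 16 SNARE genes differed by 1.5-fold in either direction. Over all genes, 2.27% were higher and 1.43% lower with doxycycline in DMSO, and 1.66% and 2.02% in BI8622. Counts of 0 in lists of this size are near these shares. With HUWE1 depletion in DMSO, ULK2 (1.51 and 2.76 CPM) and VPS37D (1.06 and 1.71 CPM) were higher, and both are low.

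**Figure D4:**
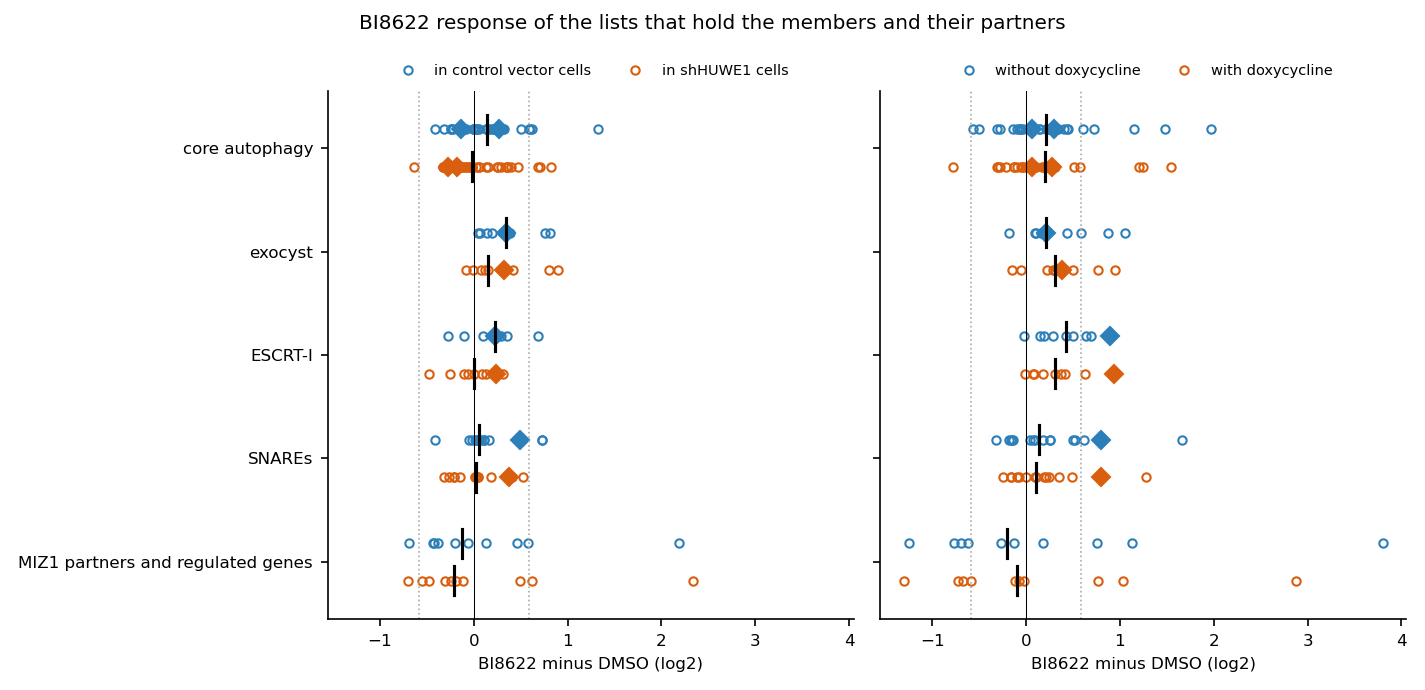
BI8622 minus DMSO on the log2 scale (x axis) for the genes of 5 lists (y axis) in the HUWE1 experiment (left) and the MIZ1 experiment (right); open circles are single genes, filled diamonds are members, black ticks are list medians and dotted lines mark 1.5-fold. VPS28 is the highest ESCRT-I gene on the right, at 0.89 and 0.94, and EXOC2 lies within the other exocyst genes.

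The list of genes that MIZ1 is known to regulate, or that encode its partners, had a median of -0.20 without and -0.096 with doxycycline, and CDKN2B stood apart in it. CDKN2B, which encodes the inhibitor p15INK4B and is a classical MIZ1 target, had 0.533 CPM in DMSO and 7.42 CPM in BI8622 without doxycycline (3.80, interval 2.88 to 4.71). With doxycycline it had 0.637 and 4.66 CPM (2.87), and in BI8622 it was thus 1.59-fold lower with doxycycline than without (-0.67, interval -1.05 to -0.29). CDKN2B was under 1 CPM in all 4 DMSO groups, where the prior count that edgeR adds is a large part of the level. CDKN1A, which encodes p21, had 36.1 and 79.3 CPM without doxycycline and 41.8 and 71.2 CPM with it. MYC itself had 92.0 and 38.7 CPM without doxycycline, 2.38-fold lower in BI8622, and 113 and 46.0 CPM with it.

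Of the 10 genes of this list that were tested, 3 were at least 1.5-fold higher and 4 lower with BI8622 without doxycycline, 3 higher and 3 lower with it, 1 higher and 1 lower in control vector cells and 2 higher and 1 lower in shHUWE1 cells. The shares of all genes were 15.3% higher and 11.6% lower, 12.6% and 10.9%, 10.4% and 5.83%, and 6.54% and 6.78% in the same order. BCL6, a POZ-domain partner of MIZ1, was among the higher ones in 3 of these comparisons, with 7.92 and 13.4 CPM without doxycycline. TRAF2, an adaptor of TNF receptor signalling, was among the lower ones in all 4, with 30.6 and 18.9 CPM in the same groups. TOPBP1, a MIZ1-binding protein of the DNA damage response, had 124 and 72.5 CPM there, and HCFC1, another binding partner, 145 and 94.5 CPM. HUWE1 depletion in DMSO left 1 higher (CDKN2B, 0.388 and 0.596 CPM, with a counting interval that held 0) and 1 lower, HUWE1.

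The pattern of each member over the 8 group levels, centred within each experiment, was compared with that of every other protein-coding gene of at least 1 CPM in both tables by Euclidean distance. Among the members, VAMP4 and VPS28 were the closest pair, at 0.25, and ZBTB17 and VPS28 the most distant, at 1.01. The size of the pattern itself, its distance from a flat profile, was 0.91 for VAMP4, 0.95 for VPS28, 0.85 for ZBTB17, 0.46 for EXOC2, 0.40 for UVRAG and 0.20 for AMBRA1. The nearest genes to VAMP4 were BIRC2 (0.097), SEL1L3 (0.11) and NADSYN1 (0.11), and those to VPS28 were ESRP1 (0.11), SEMA3B (0.14) and NRIP2 (0.14). EXOC2 was nearest to DCAF10 (0.057), ZNF189 (0.085) and USP8 (0.092). UVRAG was nearest to the SNARE gene VTI1A (0.12), ZHX2 (0.13) and RFWD2 (0.13), and AMBRA1 to GUK1, DDOST and SFXN5 (0.048 to 0.058). ZBTB17 had no gene as near, with NUTM2D (0.23), MC1R (0.23) and TM9SF4 (0.37) first. These distances describe 8 group means without their spread.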

How the data were processed

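RNA sequencing of 16 libraries in 8 groups was used. Poly-A RNA libraries were made with either of 2 kits (the kit per library is not stated) and run on a Genome Analyzer IIx. Bowtie 0.12.8 was used by the authors for alignment to hg19, and edgeR for comparing groups in pairs. The submitters' processing notes also name CASAVA and FastQC. The values read are the authors' mean log2 CPM of the libraries of 2 groups, 9 such columns in all, which include the small prior count that edgeR adds. The deposited tables also hold log2 fold changes, p-values and adjusted p-values of the authors' comparisons, which were not used. The ChIP sequencing was not analysed here.

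A pair mean is the mean of both group levels on the linear scale, so the level of a group in a closed triangle of 3 pairs follows as the sum of its 2 pair means minus the third. The MIZ1 tables allow 2 triangles. Their levels differed for 17418 genes over 4 CPM by a median of 0.0023 and a 99th percentile of 0.019 (log2), and for the members by at most 0.0085. With pair means read as means of log2 levels, the 99th percentile was 0.46. The HUWE1 tables allow 1 triangle and no such check. The solution was tested on simulated data with library sizes drawn at random from a narrow and from a wide range.

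Depth was estimated from the spacing of values under 1 CPM, which was clear in 4 of 9 pairs, and the lowest estimate was used for all groups. Counting intervals (95%) treat reads as Poisson. Since no values per library exist in these columns, no test was run. Differences were read beside those of all genes with a mean of at least 1 CPM, and 1.5-fold was the size named. Gene models were from GENCODE lifted to GRCh37, with exon lengths merged over transcripts.

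The members and lists were chosen with earlier results of these data known. The genes named were the 6 members, list genes that differed at least 1.5-fold between compared groups at 1 CPM or more, the direct complex partners of each member, and the 3 protein-coding genes nearest to each member in pattern. Alternatives were the other triangle, least squares over all pairs, means of log2 levels, a pseudocount of 1 CPM, centring on the median gene, no filter on low values and removal of a prior of 2 reads. Python 3.11.15 with numpy 2.4.6 and scipy 1.17.1 was used.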

Additional observations from a re-analysis of the deposited data

How the results depend on the processing

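Of 551 values recomputed under the alternatives, 550 stayed within their counting interval, or within 1.5 times for a count, 1 moved and 0 reversed. Differences near 0 could change sign and still count as staying. The median of the members for doxycycline in BI8622 did so on centring, from -0.018 to 0.0085. The counts of members past 1.5-fold were the same number under each alternative run for them, except that BI8622 without doxycycline gave 3 higher members in place of 2, ZBTB17 with them at 0.65, when pair means were read as means of log2 levels. The value that moved was VPS28 with doxycycline against none in DMSO, which was -0.060 and became -0.33 under that reading. The 2 triangles of the MIZ1 experiment then gave VPS28 levels up to 0.14 apart. Centring on the median gene shifted the comparisons by -0.027 to 0.062. No paired analysis was possible because the columns used hold means over the libraries of 2 groups and no value per library. Leaving out a library was not possible for the same reason. The other triangle and least squares could be run for the MIZ1 experiment only. The removal of a prior of 2 reads was chosen after seeing the data. At the estimated depth, VAMP4 rests on 157 to 312 reads per group and ZBTB17 on 211 to 433, which limits their precision most.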
